A study of Rattus norvegicus with 15 samples.

Results

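Endothelial identity and blood-brain barrier genes were described in cultured rat brain microvascular endothelial cells (BMECs) exposed to x-rays. The set held 39 genes, chosen by name for their roles in tight junctions, endothelial adhesion, vascular receptor signalling, barrier transport and endothelial transcription. Of these, 37 had transcript rows in the deposited table and 18 reached a mean of at least 0.5 FPKM (fragments per kilobase of transcript, scaled to library depth, a level that can be compared between genes), out of 17895 genes at that level and 37367 genes in all. Pecam1 and Abcb1a had no row under those names and were not analysed here. Values were summed over the rows of a gene.

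Primary BMECs came from the cerebral microvessels of Sprague-Dawley littermate rats aged 2 to 3 weeks and were grown to partial confluence. There were 5 groups of 3 libraries: control cells cultured for 12 h without exposure, and cells collected 12 h or 24 h after 5 Gy or 20 Gy. Libraries of a group are biological replicates in the study's words, and the labels do not tie them to animals. No unexposed culture of 24 h was analysed here, so time in culture and time after exposure cannot be told apart at 24 h, and all 4 exposed groups share the same 3 control libraries. Aligned depth was read from the smallest spacing of low FPKM values and was 5.44 to 7.49 gigabases per library, and no library was left out.

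The blood-brain barrier is formed by endothelial cells joined by tight junctions. Claudins and occludin form the strands between neighbouring cells, zonula occludens proteins such as ZO-1 anchor the strands to actin, and junctional adhesion molecules lie beside them. Brain endothelial cells also carry nutrients such as glucose and monocarboxylates inward through dedicated carriers and pump drugs outward through ABC transporters, and SOX and ETS transcription factors keep their endothelial programme.

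Most genes of the set that define endothelial cells had a mean below 0.5 FPKM, here called absent, in the control cells as well as after exposure. All 4 transcription factors of the set (Sox17, Sox18, Erg and Fli1) were below 0.5 FPKM, as were 5 of the 7 adhesion and surface genes with rows, 3 of the 5 vascular receptors, 3 of the 9 transporters with rows and 4 of the 12 tight junction genes. Emcn (endomucin), Tie1 (an orphan receptor of the angiopoietin system), Slco1c1 (a thyroxine transporter of brain capillaries) and Sox17 were listed at 0 in all 15 libraries. In the same table, 2 of 84 ribosomal protein genes were also listed at 0 in every library, so a listed 0 was not read as the absence of a transcript. Cldn5, the main claudin of brain endothelium, was listed above 0 in 2 of the 15 libraries, at 0.0328 FPKM in 1 control library and 0.0316 FPKM in 1 library 12 h after 20 Gy. Those values correspond to 600 aligned bases, as much as 4 reads of 150 bases, in 99.5 gigabases over all libraries. Vwf (von Willebrand factor) reached no more than 0.11 FPKM in any library, and Nos3 (endothelial nitric oxide synthase) no more than 0.0397 FPKM.

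The labelled cell type was therefore compared with marker lists of 10 cell types. In the endothelial list of 10 genes, 9 had rows and 2 (Kdr and Egfl7) were present. All 10 are also genes of the set, so their levels repeat those of the set and are no separate check. Eng and Flt1, which were present in the set, are not in this list. The FPKM of the 9 genes with rows summed to between 1.96 and 4.12 in each of the 15 libraries. In the fibroblast list of 10 genes 8 were present, and all 10 summed to between 2271 and 2572 FPKM in the control libraries. Col3a1, a fibrillar collagen gene, was at 535 ± 104 FPKM and Col1a1 at 516 ± 42.8 FPKM (SD, n = 3) in control cells, whereas Cdh5, which encodes VE-cadherin of endothelial adherens junctions, was at 0.191 ± 0.0786 FPKM (SD, n = 3). Summed levels in control libraries were 290 to 346 FPKM for the leptomeningeal list, 153 to 160 FPKM for the pericyte list, 30.7 to 46.6 FPKM for the smooth muscle list and 25.3 to 28.6 FPKM for the epithelial list. They were 13.3 to 15.3 FPKM for the astrocyte list, 5.82 to 9.13 FPKM for the neuron list, 0.565 to 1.82 FPKM for the microglia and macrophage list and 0.426 to 0.971 FPKM for the oligodendrocyte list. Within the pericyte list, Rgs5 was at 0.0383 FPKM in control cells and Kcnj8, Abcc9, Vtn and Higd1b were listed at 0 there, while Pdgfrb was at 44.5 FPKM. A separate list of 26 other endothelial markers, some of them also expressed outside endothelium, had 11 present genes and summed to 221 to 254 FPKM in control libraries, of which Esm1 (96.5 FPKM), Nrp2 (77.8 FPKM) and Nrp1 (40.8 FPKM) were the most abundant. The markers of the 10-gene list were thus low against the label, and the cultures are called BMECs below only as the labels call them. In bulk libraries, fewer cells of a type and less RNA per cell cannot be told apart.

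**Figure D1:**
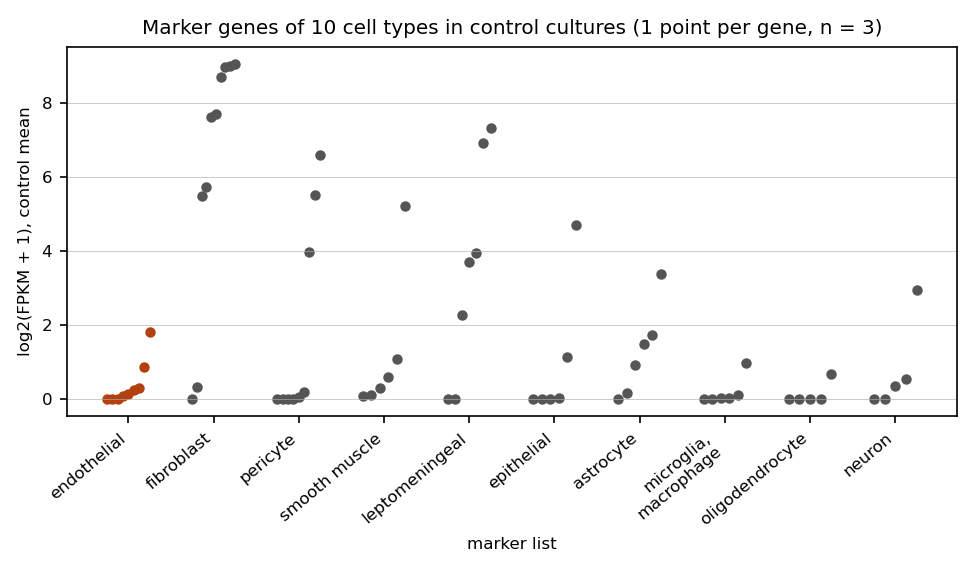
Mean log2(FPKM + 1) over the 3 control libraries (vertical axis) of each marker gene (1 point per gene) in 10 marker lists (horizontal axis), with the endothelial list in red. All 9 endothelial markers with rows lie at or below Egfl7, whose control mean was 2.51 FPKM, while 6 fibroblast markers lie at 195 FPKM or higher.

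At the threshold itself, Tjp3 with a mean of 0.596 FPKM and Kdr with 0.598 FPKM lay just inside, and Slco1a4 with 0.398 FPKM and Fli1 with 0.254 FPKM just outside. Some genes below the threshold had groups that did not overlap, and these low values were not tested. Those described by group were chosen after their values were seen. The share of all genes with such groups is not reported here. Cdh5 was at 0.12, 0.275 and 0.177 FPKM in the control libraries and at 0 to 0.0987 FPKM in the 12 exposed ones. Every control library lay above every exposed library. Mfsd2a, a lipid transporter of brain endothelium, was at 0.134, 0.0953 and 0.0735 FPKM in control libraries and at 0 to 0.0413 FPKM after exposure. Cldn3 was listed at 0 in the 3 control libraries and in the 3 libraries 12 h after 5 Gy. It was at 0.0675, 0.126 and 0 FPKM 12 h after 20 Gy and at 0.119 to 0.448 FPKM in the 6 libraries of 24 h. Tek, the angiopoietin receptor, was at 0.0482 to 0.385 FPKM over the 15 libraries, Flt4 at 0 to 0.226 FPKM, and Cgn (cingulin) at 0.0349 to 0.24 FPKM. Esam reached at most 0.218 FPKM, Marveld2 (tricellulin) 0.118 FPKM, Sox18 0.242 FPKM and Erg 0.153 FPKM. Slco1a4, an organic anion transporter, stood at 0.224 to 0.493 FPKM. Fli1 was at 0.269 to 0.446 FPKM in controls, at 0.0727 to 0.173 FPKM in the libraries of 12 h and at 0 to 0.638 FPKM in those of 24 h.

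**Figure D2:**
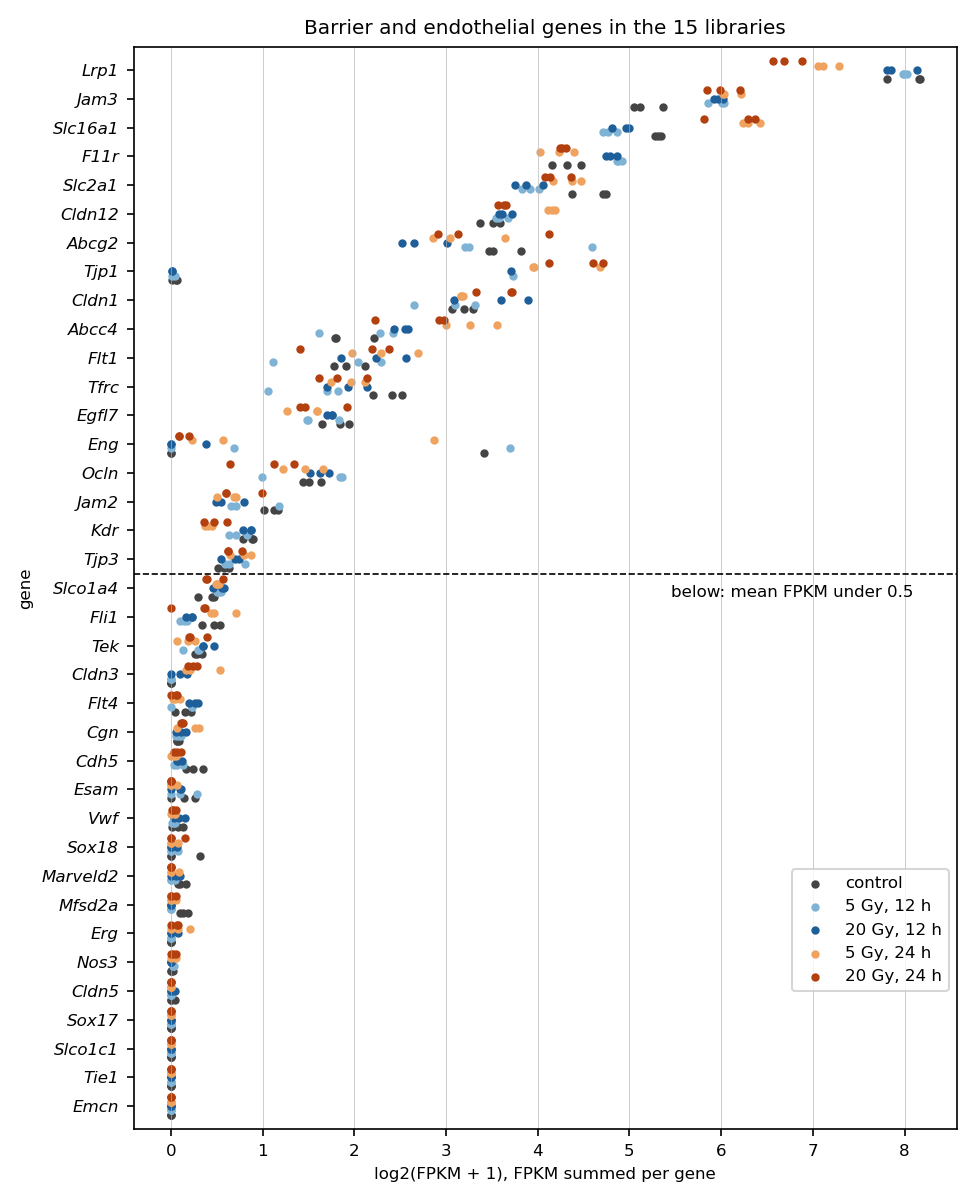
log2(FPKM + 1) (horizontal axis) in each of the 15 libraries (points, coloured by group) for the 37 genes with rows (vertical axis, ordered by mean). The 19 genes below the dashed line had a mean under 0.5 FPKM, and Lrp1 with a mean of 202 FPKM is at the top.

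Promoters of present and absent genes were compared as a feature that the levels did not use. RefSeq windows (GRCr8) from 250 bases before to 50 bases after the transcription start were found for 28 of the 39 genes, 17 present, 10 absent and Abcb1a, with 18 windows for the present ones. The median number of CpG dinucleotides per window was 22 in the 18 windows of present genes (1 to 41) and 9 in the 10 windows of absent genes (3 to 33), against 7 in 33469 promoters of the genome. The letters CCGGAAG, searched on both strands as a core of ETS factor motifs, were in 5.56% of the windows of present genes, 0% of those of absent genes and 8.75% of all promoters, and TATAAA was in 11.1%, 10% and 14.2%. Both windows below are shown to contrast an endothelium-defining gene that was nearly absent with a transporter called in both comparisons over time, with CpG dinucleotides in capitals. The Cldn5 window (GRCr8, chr11:95718549-95718848, minus strand) held 11 CpG, and the Slc16a1 window (GRCr8, chr2:194812410-194812709, plus strand) held 39. Slc16a1 was near the top of the range of present genes. Cldn12 with 1 CpG and Tjp1 with 2, both present, held fewer than Cldn5.
Cldn5: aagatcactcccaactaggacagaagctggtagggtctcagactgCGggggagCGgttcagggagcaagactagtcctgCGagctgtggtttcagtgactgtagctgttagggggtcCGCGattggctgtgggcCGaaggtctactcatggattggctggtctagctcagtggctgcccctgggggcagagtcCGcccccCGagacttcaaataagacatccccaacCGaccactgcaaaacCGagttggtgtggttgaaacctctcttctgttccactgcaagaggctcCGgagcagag
Slc16a1: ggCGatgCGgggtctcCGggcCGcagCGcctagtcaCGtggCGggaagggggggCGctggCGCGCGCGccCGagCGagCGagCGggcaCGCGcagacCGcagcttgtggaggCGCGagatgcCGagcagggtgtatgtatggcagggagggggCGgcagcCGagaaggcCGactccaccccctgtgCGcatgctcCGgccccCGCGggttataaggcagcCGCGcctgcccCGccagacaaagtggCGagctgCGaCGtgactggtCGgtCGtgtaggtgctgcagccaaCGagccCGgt
These counts describe the windows and were not tested.

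The 18 present genes were 8 tight junction genes, 6 transporters and receptors, 2 adhesion and surface genes and 2 VEGF receptors, and their levels spanned from 0.596 FPKM (Tjp3) to 202 FPKM (Lrp1) in the mean over 15 libraries. Lrp1, a large endocytic receptor for lipoproteins and proteases, was followed by Jam3 at 57.9 FPKM and Slc16a1 at 49 FPKM, then by F11r at 22.1, Slc2a1 at 17.7 and Cldn12 at 12.2 FPKM. Abcg2 (9.74 FPKM), Tjp1 (9.54 FPKM) and Cldn1 (9.06 FPKM) were next to each other in this order, with ranges over libraries that overlapped. Lrp1 stood at percentile 98.4 of the tested genes, Jam3 at 93 and Slc16a1 at 91.7. Each was tested in 8 comparisons with limma on log2(FPKM + 1), and a gene was called when its adjusted p (over all 17895 genes) was under 0.05 and its fold change at least 1.5. A fold change on this scale understates the change of genes near or below 1 FPKM. The exact permutation test of 3 against 3 libraries cannot go below p = 0.1 (two-sided), which is the value it gave for every called gene.

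At 12 h after exposure few of the genes were called. After 5 Gy, 3 of 18 were called (Jam3 higher, Slc2a1 and Tfrc lower), against 9.94% of all tested genes (4.98% higher and 4.96% lower), and after 20 Gy 2 of 18 (Jam3 higher, Slc2a1 lower), against 8.54% (4.90% higher and 3.64% lower). At 24 h the counts were larger, but so was the background. After 5 Gy, 6 of 18 were called (Cldn12, Tjp1, Jam3, Abcc4 and Slc16a1 higher, Lrp1 lower), against 41.3% of all genes (20.5% higher and 20.8% lower). After 20 Gy, 5 of 18 were called (Tjp1, Jam3, Abcc4 and Slc16a1 higher, Lrp1 lower), against 40.3% (17.0% higher and 23.3% lower). The share of the set called was thus 33.3% and 27.8% at 24 h, next to 41.3% and 40.3% of all genes. At 12 h it was 16.7% and 11.1%, next to 9.94% and 8.54%. With 18 genes these shares rest on few calls, and their difference from the background was not tested. The median log2 change of the 18 genes at 24 h was -0.05 after 5 Gy and -0.13 after 20 Gy, next to -0.05 and -0.14 over all tested genes. At 12 h these medians were -0.0020 and 0.04, next to 0.03 and 0.0058.

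**Figure D3:**
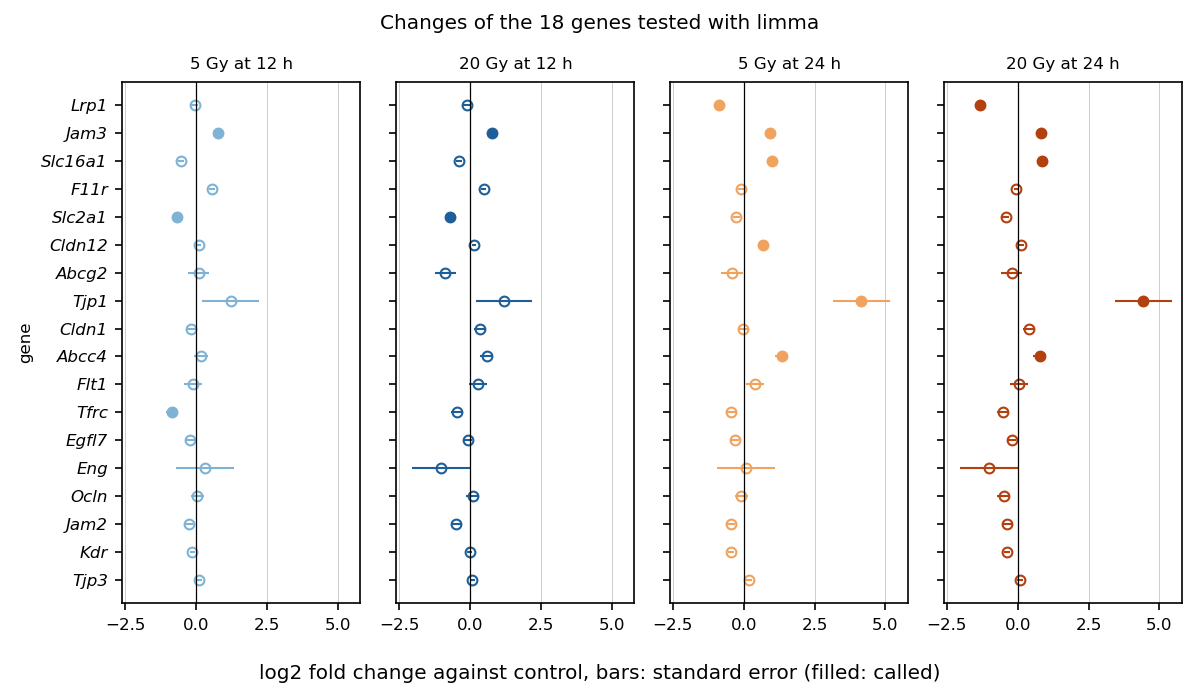
log2 fold change against control on log2(FPKM + 1) (horizontal axis, bars: standard error from limma) of the 18 tested genes (vertical axis, highest mean at the top) in the 4 exposed groups. Filled points were called; Jam3 is filled in all 4 panels, and the wide bars of Tjp1 and Eng come with rows that switch between libraries.

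Between the times, 5 of 18 were called after 5 Gy (Tjp1, Abcc4 and Slc16a1 higher at 24 h, F11r and Lrp1 lower), against 36.4% of all genes (17.1% higher and 19.3% lower). After 20 Gy, 3 of 18 were called (Tjp1 and Slc16a1 higher, Lrp1 lower), against 36.3% (14.1% higher and 22.1% lower). Of all calls in the latter comparison 38.9% were higher at 24 h, and 49.8% after quantile normalization. Between the doses, none of the 18 was called by limma at 12 h, where 2 had an unadjusted p under 0.05 and 0.123% of all genes were called, and none at 24 h, where 3 had an unadjusted p under 0.05 and 2.42% were called. Of all calls between the doses at 24 h 39.5% were higher after 20 Gy, and 56.9% after quantile normalization.

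Among the tight junction genes, Jam3 was called in all 4 comparisons with control. Jam3 (Rnor_6.0, chr8:28147111-28208466, minus strand), a junctional adhesion molecule of endothelial and epithelial contacts, was at 32.2, 33.7 and 40.4 FPKM in control libraries. It was at 64.4, 63.2 and 57.2 FPKM 12 h after 5 Gy, 61.5, 63.8 and 59.8 FPKM 12 h after 20 Gy, 64.2, 63.8 and 73.6 FPKM 24 h after 5 Gy, and 56.3, 62.2 and 72.7 FPKM 24 h after 20 Gy. All 12 exposed libraries lay above all 3 controls, at similar levels whatever the dose and time. The log2 change was 0.79 ± 0.11 and 0.79 ± 0.11 (SE) at 12 h after 5 and 20 Gy (adjusted p = 0.00027 and 0.00034) and 0.91 ± 0.11 and 0.83 ± 0.11 at 24 h (adjusted p = 1e-05 and 2.3e-05). Between 24 h and 12 h it differed by 0.12 after 5 Gy (95% confidence interval -0.11 to 0.35) and by 0.04 after 20 Gy (-0.19 to 0.27). With only the rows that carry the name, the change 24 h after 5 Gy was 0.38 (adjusted p = 0.067) and was not called.

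F11r (Rnor_6.0, chr13:89826254-89850612), which encodes junctional adhesion molecule A, was higher at 12 h and overlapped the controls at 24 h. It was at 21.2, 19 and 16.8 FPKM in controls, at 28, 29.2 and 28.3 FPKM 12 h after 5 Gy and at 25.8, 26.5 and 28.1 FPKM 12 h after 20 Gy. Libraries of 24 h held 20.1, 15.2 and 17.8 FPKM after 5 Gy and 18.9, 18 and 18.2 FPKM after 20 Gy. The 6 libraries of 12 h were above all others, by 0.57 ± 0.10 and 0.48 ± 0.10 (log2, SE) over control (adjusted p = 0.0016 and 0.0053), which passed the adjusted p but not the fold change of 1.5. The fall from 12 h to 24 h was called after 5 Gy (-0.66 ± 0.10, adjusted p = 9.3e-05) and reached -0.52 ± 0.10 after 20 Gy (adjusted p = 0.00062). Without the second library of 24 h after 5 Gy the former was -0.56 and not called. The row that carried the F11r name held 22.1, 22.2 and 23.8 FPKM in the libraries of 12 h after 20 Gy and at most 0.022 FPKM in the other 12, where rows without a name held the level. The rows therefore cannot be read alone, and their sum was used.

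Cldn12 (Rnor_6.0, chr4:25686392-25692547), a claudin without the usual PDZ-binding end, was called higher 24 h after 5 Gy and not 24 h after 20 Gy. It was at 9.31, 10.4 and 11 FPKM in controls, at 11.7, 10.6 and 10.9 FPKM 12 h after 5 Gy and at 12.2, 11.2 and 10.9 FPKM 12 h after 20 Gy. At 24 h it was at 16.3, 16.8 and 17.2 FPKM after 5 Gy and at 10.9, 11.6 and 11.4 FPKM after 20 Gy. Only the libraries of 24 h after 5 Gy stood apart, above the other 12. The change from control was 0.66 ± 0.08 (log2, SE; adjusted p = 9.6e-06) in these and 0.13 ± 0.08 24 h after 20 Gy (adjusted p = 0.16), and the 2 doses differed by -0.53 ± 0.08 at 24 h (adjusted p = 0.0025, under the fold change of 1.5). A row without a name held 81.9% of the level. The gain 24 h after 5 Gy was not called on that row alone (0.49) or after quantile normalization (0.55, adjusted p = 6.4e-05).

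Tjp1, which encodes the scaffold ZO-1, was higher at 24 h, but its size depended on which rows were counted. By the naming rule it was at 0.0111, 0.0366 and 0.0483 FPKM in controls, at 12.3, 0.0294 and 0.011 FPKM 12 h after 5 Gy and at 12.1, 0.00702 and 0.0101 FPKM 12 h after 20 Gy. At 24 h it was at 24.6, 14.5 and 14.5 FPKM after 5 Gy and 25.2, 16.5 and 23.3 FPKM after 20 Gy. The locus (Rnor_6.0, chr1:126146489-126227469) held 4 further rows without a name, left out by the rule because the locus carried several names. With the overlapping rows added, a sum chosen after seeing the data, Tjp1 was at 26.5, 23.4 and 23.5 FPKM in controls, 26.1 to 30.8 FPKM 12 h after 5 Gy, 27.8 to 32.4 FPKM 12 h after 20 Gy, 43.9 to 45.1 FPKM 24 h after 5 Gy and 42.1 to 51 FPKM 24 h after 20 Gy. On these sums all 6 libraries of 24 h lay above the other 9. However, 1 of the added rows ran on to position 126403406, beyond the stated locus. It held 16.9 of the 46.1 FPKM in the second library of 24 h after 20 Gy. In the other libraries of 24 h it held 1.33 to 3.56 FPKM, and in control and 12 h libraries at most 0.158 FPKM. The place of that second library above all those of 12 h rests on this row, and no fit left the row out. The log2 change by the rule was 4.15 ± 1.00 and 4.43 ± 1.00 at 24 h after 5 and 20 Gy, and with the overlapping rows it was 0.85 ± 0.09 and 0.89 ± 0.09 (SE; adjusted p = 4.2e-06 and 2.7e-06). From 12 h to 24 h the overlapping sums rose by 0.63 ± 0.09 after 5 Gy and 0.62 ± 0.09 after 20 Gy (adjusted p = 6.3e-05 and 8.1e-05). By the rule these rises were 2.93 and 3.23, and the calls were lost without 1 of the low libraries of 12 h (2.32 and 2.31 after 5 Gy, 2.62 and 2.62 after 20 Gy) or without the first library of 24 h after 5 Gy (2.69).

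**Figure D4:**
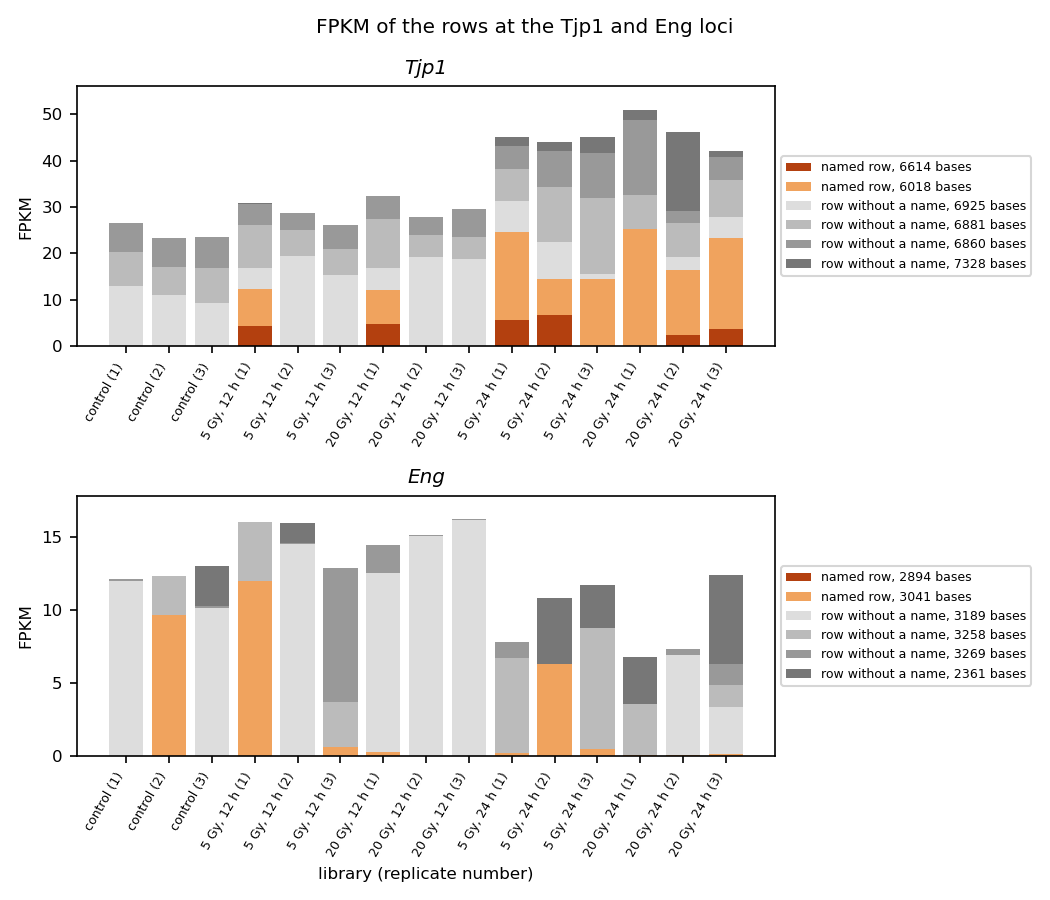
FPKM (vertical axis) of the transcript rows at the Tjp1 and Eng loci, stacked in each of the 15 libraries (horizontal axis); rows with the gene name are orange or red, rows without a name grey. The grey and coloured rows trade places between replicates of a group. The whole Tjp1 stack is 23.4 to 32.4 FPKM in control and 12 h libraries and 42.1 to 51 FPKM at 24 h. It includes a grey row of 7328 bases that runs beyond the stated locus and holds 16.9 FPKM in the second library of 24 h after 20 Gy.

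The other strand genes showed no called change. Ocln (occludin) was at 1.72 to 2.11 FPKM in controls and 0.567 to 1.53 FPKM 24 h after 20 Gy, with a log2 change of -0.49 ± 0.23 (SE; adjusted p = 0.08). Those 3 libraries were below the controls. Cldn1 was at 7.36 to 8.83 FPKM in controls and at 5.27 to 13.8 FPKM after exposure, with changes between -0.16 and 0.40. Jam2 was at 1.02 to 1.24 FPKM in controls and 0.419 to 0.633 FPKM 24 h after 5 Gy (-0.46 ± 0.16, adjusted p = 0.02, under the fold change of 1.5). Tjp3 (ZO-3) stayed between 0.425 and 0.837 FPKM in all libraries, with changes between 0.09 and 0.20.

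Of the endothelial adhesion and surface genes, Eng and Egfl7 were present. Eng (Rnor_6.0, chr3:11679530-11717485), the endoglin co-receptor of TGF-beta, was listed by the rule at 0, 9.67 and 0 FPKM in controls and at 0 to 12 FPKM elsewhere, and was not called in any comparison. With the overlapping rows without a name it was at 12.1, 12.3 and 13 FPKM in controls, 12.8 to 16 FPKM 12 h after 5 Gy, 14.4 to 16.2 FPKM 12 h after 20 Gy, 7.83 to 11.7 FPKM 24 h after 5 Gy and 6.74 to 12.4 FPKM 24 h after 20 Gy. The 3 libraries of 12 h after 20 Gy were thus above the controls on these sums, and those of 24 h after 5 Gy below them. Some of the added rows began before the named ones, from position 11657324, in a locus of several names. What they hold beyond Eng was not tested. On these sums 24 h was lower than 12 h after 20 Gy by -0.77 ± 0.19 (SE; adjusted p = 0.0035, called), and the changes from control were 0.24, 0.27, -0.29 and -0.50, none called. Egfl7, a secreted vascular matrix protein, was at 2.13 to 2.83 FPKM in controls and 1.4 to 2.78 FPKM after exposure. Its changes lay between -0.33 and -0.07, none called, and 99.6% of its level was in a row without a name.

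Of the vascular receptors, Kdr and Flt1 were present at low levels. Kdr, the main VEGF receptor of endothelial cells, was at 0.729, 0.866 and 0.84 FPKM in controls, 0.556 to 0.78 FPKM 12 h after 5 Gy and 0.718 to 0.837 FPKM 12 h after 20 Gy. At 24 h it was at 0.36, 0.289 and 0.32 FPKM after 5 Gy and 0.288, 0.529 and 0.385 FPKM after 20 Gy. The 6 libraries of 24 h lay below the other 9. On log2(FPKM + 1) Kdr was lower by -0.45 ± 0.09 and -0.37 ± 0.09 (SE; adjusted p = 0.00099 and 0.0037), which missed the fold change of 1.5 on that scale. With a pseudocount of 0.1 both were called. Flt1, a VEGF receptor that also acts as a decoy, was at 2.42 to 3.32 FPKM in controls and 1.16 to 5.48 FPKM after exposure, with changes between -0.12 and 0.39 that were not called.

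Among the transporters and receptors, Lrp1 was the most abundant. Lrp1 (Rnor_6.0, chr7:70846344-70926903, minus strand) was called lower at 24 h and not called at 12 h. It was at 286, 285 and 223 FPKM in controls, 254, 252 and 259 FPKM 12 h after 5 Gy and 230, 223 and 281 FPKM 12 h after 20 Gy. Levels of 24 h were 132, 137 and 155 FPKM after 5 Gy and at 102, 94 and 117 FPKM after 20 Gy. The 6 libraries of 24 h lay below the other 9, and on the summed rows the 20 Gy libraries below the 5 Gy ones. That order of the doses came with the row without a name. Its mean was 87.2 FPKM 24 h after 5 Gy and 38.1 FPKM 24 h after 20 Gy, against 60.8 FPKM in controls. Means of the named row had the opposite order, 54.3 and 66.1 FPKM, both below its 204 FPKM in controls. The log2 change from control was -0.89 ± 0.12 after 5 Gy and -1.33 ± 0.12 after 20 Gy (SE; adjusted p = 3.2e-05 and 1.1e-06), and the difference between the doses was -0.44 ± 0.12 (adjusted p = 0.06). Over the same groups the summed FPKM of the fibroblast list was 2271 to 2572 in controls, 865 to 940 at 24 h after 5 Gy and 810 to 961 at 24 h after 20 Gy, with 5 of its 8 tested genes called lower at each dose (Col1a1, Col1a2, Col3a1, Dcn and Lum) and none higher, while Fbln1, the most abundant, changed by 0.22 and 0.18 and was not called. The summed pericyte list was 153 to 160 FPKM in controls, 74.1 to 88.1 FPKM and 50.3 to 77.3 FPKM at 24 h, with 3 of 4 tested genes called lower at each dose. Of all tested genes 20.8% and 23.3% were called lower at 24 h after 5 and 20 Gy. The summed endothelial list was 3.66 to 4.12 FPKM in controls and 1.96 to 2.57 FPKM and 2.15 to 3.35 FPKM at 24 h. The part of these cell type markers in the change of Lrp1 or of any other gene of the set was not tested.

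Slc16a1 (Rnor_6.0, chr2:207108552-207128554), the monocarboxylate transporter MCT1 that carries lactate and ketone bodies, moved down at 12 h and up at 24 h. It was at 38.7, 38 and 39.5 FPKM in controls, 26.2, 28 and 25.2 FPKM 12 h after 5 Gy and 30.1, 31 and 27.1 FPKM 12 h after 20 Gy. By 24 h the values were 74.2, 85.1 and 77.6 FPKM after 5 Gy and 77.6, 81.7 and 55.3 FPKM after 20 Gy. All libraries of 12 h lay below the controls and all of 24 h above them. The log2 change was -0.53 ± 0.12 and -0.39 ± 0.12 at 12 h (SE; adjusted p = 0.0084 and 0.045, under the fold change of 1.5), and 1.01 ± 0.12 and 0.85 ± 0.12 at 24 h (adjusted p = 1.3e-05 and 5.8e-05). From 12 h to 24 h it rose by 1.54 ± 0.12 after 5 Gy and 1.23 ± 0.12 after 20 Gy (adjusted p = 4.4e-07 and 3e-06).

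Slc2a1 (Rnor_6.0, chr5:138154673-138182897), the glucose transporter GLUT1, was lower at 12 h. It was at 19.8, 25.2 and 25.7 FPKM in controls, 15.1, 14.1 and 13.2 FPKM 12 h after 5 Gy and 15.7, 13.6 and 12.4 FPKM 12 h after 20 Gy. At the later time it was at 17, 19.8 and 21.1 FPKM after 5 Gy and 19.5, 15.8 and 16.6 FPKM after 20 Gy. The libraries of 12 h lay below all controls, and those of 24 h after 5 Gy overlapped the controls. The log2 change was -0.69 ± 0.12 and -0.72 ± 0.12 at 12 h (SE; adjusted p = 0.0021 and 0.0019) and -0.27 ± 0.12 and -0.42 ± 0.12 at 24 h (adjusted p = 0.077 and 0.011, not called). Counting only rows with the name gave -0.57 at 12 h after 5 Gy (adjusted p = 0.052).

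Tfrc, the transferrin receptor for iron uptake, was at 3.62, 4.33 and 4.75 FPKM in controls and 2.25, 2.52 and 1.08 FPKM 12 h after 5 Gy. It was at 2.82, 3.4 and 2.25 FPKM 12 h after 20 Gy, 2.34, 2.91 and 3.32 FPKM 24 h after 5 Gy and 2.51, 3.41 and 2.07 FPKM 24 h after 20 Gy. All exposed libraries lay below the controls, and only the change 12 h after 5 Gy was called (-0.86 ± 0.20, SE, adjusted p = 0.011), with -0.46, -0.44 and -0.52 in the other groups. On the named row alone it was -1.17 with adjusted p = 0.16, since 1 library held most of its level in a row without a name.

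Of the ABC transporters, Abcc4 (MRP4, an exporter of organic anions and cyclic nucleotides) was called higher than control at 24 h. It was at 2.49, 2.46 and 3.65 FPKM in controls, 4.34, 3.85 and 2.07 FPKM 12 h after 5 Gy and 4.99, 4.85 and 4.39 FPKM 12 h after 20 Gy. At 24 h it was at 6.97, 8.6 and 10.7 FPKM after 5 Gy and 3.68, 6.9 and 6.56 FPKM after 20 Gy. The libraries of 24 h lay above the controls, the lowest of them at 3.68 FPKM against 3.65 FPKM in the highest control. The log2 change was 1.33 ± 0.24 after 5 Gy and 0.77 ± 0.24 after 20 Gy (SE; adjusted p = 0.00037 and 0.014). The latter call was lost without the second library (0.63, adjusted p = 0.059) or the third library (0.67, adjusted p = 0.055) of that group. It was also lost on the highest row alone (0.42, adjusted p = 0.17), where the change after 5 Gy stayed called. From 12 h to 24 h after 5 Gy it rose by 1.17 ± 0.24 (adjusted p = 0.0012). After 20 Gy the libraries of 12 h already lay above the controls (0.58 ± 0.24, adjusted p = 0.12, not called). There the change from 12 h to 24 h was 0.19 ± 0.24 (adjusted p = 0.53). Rows without a name held 98.2% of this level. They were 2 rows that did not overlap, 1 ending at position 103825609 of chr15 and 1 starting at 103827550. Whether they are parts of 1 transcript, which the sum would then count more than once, was not tested. Abcg2 (BCRP), a drug efflux pump, was at 13, 10.4 and 10 FPKM in controls, 8.21, 8.55 and 23.1 FPKM 12 h after 5 Gy and 5.3, 4.72 and 7.04 FPKM 12 h after 20 Gy. It was at 11.5, 7.24 and 6.27 FPKM 24 h after 5 Gy and 16.4, 7.73 and 6.53 FPKM 24 h after 20 Gy, so that single libraries stood apart within groups, and it was not called in any comparison. Its 3 libraries of 12 h after 20 Gy lay below the controls (-0.87 ± 0.38, adjusted p = 0.14).

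**Figure D5:**
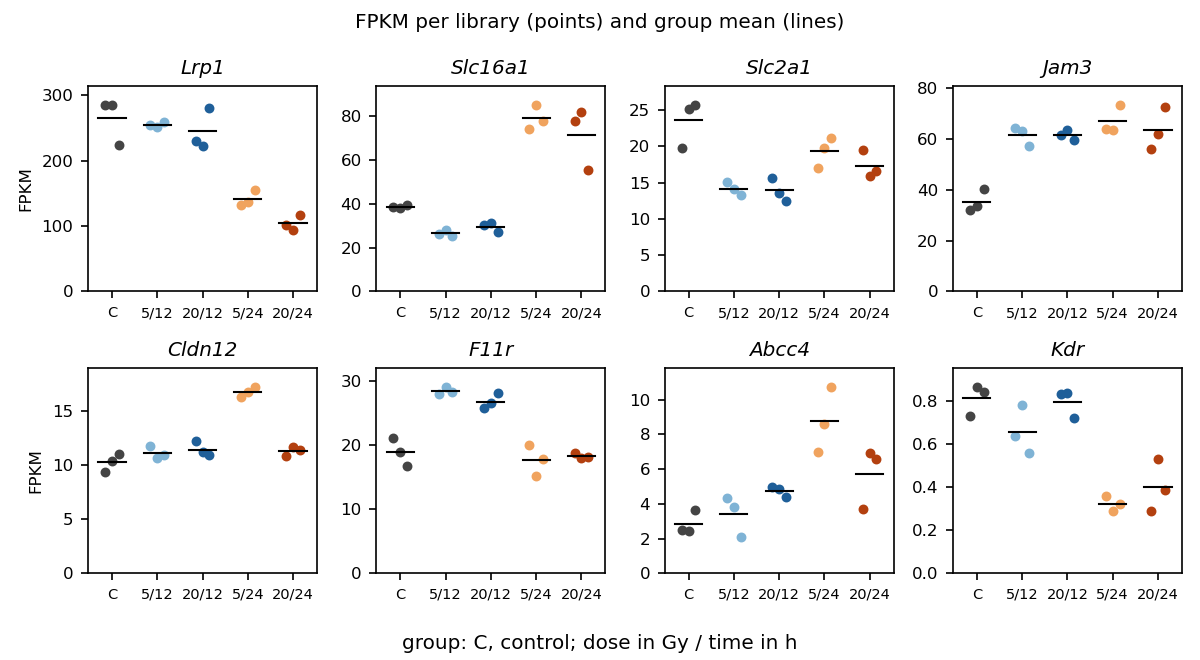
FPKM (vertical axes, from 0) of 8 genes in each of the 15 libraries (points) with the group mean (line), for control (C) and for dose in Gy and time in h (5/12, 20/12, 5/24, 20/24). Lrp1 and Kdr are lowest at 24 h, Slc16a1 crosses from below the controls at 12 h to above them at 24 h, and Cldn12 is apart only 24 h after 5 Gy, at 16.3 to 17.2 FPKM.

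Other genes of the same pathways were counted from lists chosen by function. Of 20 other junction genes 17 were tested. None was called at 12 h at either dose, where 9.94% and 8.54% of all tested genes were called. At 24 h 5 were higher and 5 lower after 5 Gy, against 41.3% of all tested genes called. After 20 Gy 6 were higher and 4 lower at 24 h, against 40.3%. The median changes at 24 h were -0.05 and -0.07. The most abundant, Cldn11, was at 732 ± 133 FPKM (SD, n = 3) in controls and changed by -0.76 24 h after 5 Gy (adjusted p = 0.015) and by -0.56 after 20 Gy (adjusted p = 0.059). Ctnnb1 (beta-catenin) fell from 207 ± 11.4 FPKM to 116 ± 4.68 and 99.3 ± 8.51 FPKM (SD, n = 3) at 24 h, by -0.82 and -1.05 (adjusted p = 2.4e-06 and 3.3e-07). Ctnna1 (alpha-catenin) changed by -0.20 and -0.07 and was not called.

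Of 18 other barrier transporters 14 were tested. At 12 h 1 was higher and 5 lower after 5 Gy, and 1 higher and 3 lower after 20 Gy, whereas at 24 h 6 were higher and 3 lower at each dose, with median changes of 0.35 and 0.11. Of all tested genes 20.5% and 17.0% were higher and 20.8% and 23.3% lower at 24 h, and 9.94% and 8.54% were called at 12 h. Slc3a2, the heavy chain of amino acid transporters, rose from 166 ± 5.34 FPKM to 503 ± 14 and 433 ± 40.9 FPKM (SD, n = 3) at 24 h, by 1.59 and 1.37 (adjusted p = 4.6e-08 and 1.6e-07). Cav1, which forms caveolae, fell from 143 ± 15.6 FPKM to 51.8 ± 2.33 and 69.6 ± 7.14 FPKM (SD, n = 3; by -1.44 and -1.03, adjusted p = 2.2e-07 and 4.1e-06).

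Of 26 other endothelial markers 11 were tested. At 12 h 1 was higher and none lower at each dose, where 9.94% and 8.54% of all tested genes were called. At 24 h 2 were higher and 2 lower after 5 Gy and 3 higher and 3 lower after 20 Gy. There 41.3% and 40.3% of all tested genes were called. Esm1 (endocan) was at 96.5 ± 12.5 FPKM in controls and 170 ± 10.9 FPKM (SD, n = 3) 24 h after 20 Gy, a change of 0.82 (adjusted p = 0.0065), and Nrp1 (neuropilin 1) changed by -0.67 there (adjusted p = 0.017), while Nrp2 was not called. Of 16 genes of Wnt signalling and barrier induction 11 were tested, and at 24 h 6 were higher and 2 lower after 5 Gy and 4 higher and 2 lower after 20 Gy, against the same 41.3% and 40.3%. Adgra2, a Wnt7 co-receptor of brain vessels, fell from 139 ± 11 FPKM to 27.2 ± 8.32 and 18.3 ± 4.18 FPKM (SD, n = 3; by -2.36 and -2.88, adjusted p = 1.1e-06 and 2.2e-07), and the Wnt co-receptor Lrp6 rose by 0.78 and 0.60 (adjusted p = 0.00053 and 0.0037). Nr2f2, a venous transcription factor, was not called against control. Of 8 VEGF and angiopoietin ligands 6 were tested, with 3 higher after 5 Gy and 2 higher after 20 Gy at 24 h and none lower, against 20.5% and 17.0% of all tested genes higher. Vegfc rose from 14.6 ± 1.34 FPKM to 31.7 ± 1.45 and 33.2 ± 0.24 FPKM (SD, n = 3; by 1.07 and 1.14, adjusted p = 2e-07 and 1.2e-07), and neither Angpt2 nor Angpt1 was called.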

How the data were processed

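RNA sequencing libraries of rat BMECs were analysed, 3 in each of 5 groups taken from the labels. According to the study's methods and the submitters' processing notes, the authors trimmed reads (Trimmomatic), used HISAT2 for mapping to Rnor_6.0 and StringTie for assembly, and deposited FPKM values per transcript row, which were used as deposited. The table held 85322 rows in 40272 loci. FPKM was summed per gene over rows with its name and rows without a name in a locus that held that name alone, and 4738 rows stayed unassigned. Counts were not analysed here. Depth was 5.44 to 7.49 gigabases per library, from steps that 65.7 to 74.8% of low values met as whole multiples.

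Genes with a mean of at least 0.5 FPKM entered a limma 3.58.1 fit (R 4.3.3) on log2(FPKM + 1) (1 mean per group, variance prior with trend, Benjamini-Hochberg over 17895 genes), checked on simulated data. Tables were made in Python 3.11.15 with pandas 2.3.3. All genes of the set are named, with values in every library where called in any comparison or among the 8 with the highest mean, and of each pathway list at most the 3 present genes of highest mean. A gene that this rule also names is not reported here. Cell type markers were described by list, and those named singly, as well as the genes given under 0.5 FPKM, were chosen after their values were seen. The members and lists were chosen with earlier results of these data known. Replicate numbers did not pair the libraries. Same-numbered libraries correlated at -0.18 to 0.23 in their deviations from the group means. Alternatives were other pseudocounts, filters, scalings, row rules and fits, a replicate block and leaving out each library. Sums with overlapping rows at Tjp1 and Eng were added after seeing the data, and some of these rows run beyond the named ones. Promoter windows came from RefSeq (GRCr8) and were not placed on Rnor_6.0.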

Additional observations from a re-analysis of the deposited data

Results flagged for a closer look

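Cldn12 changed differently over time at the 2 doses. Its change from 12 h to 24 h was 0.55 after 5 Gy and -0.01 after 20 Gy on the log2 scale, a difference of -0.57 ± 0.11 (SE, limma interaction term, adjusted p = 0.04), and it was the only one of the 18 tested genes with an adjusted p under 0.05. Over 22 alternatives the difference lay between -0.82 and 0.57, and its adjusted p between 0.018 and 0.79. It was under 0.05 in 7 of them, and with the replicate block it was 0.081. On the named row alone the sign was the opposite (0.57, adjusted p = 0.79), and without any 1 of 11 of the 12 exposed libraries the adjusted p was over 0.05, for example 0.11 without the second library of 12 h after 5 Gy. A row without a name held most of the level of Cldn12. On that row alone the difference was -0.82 (adjusted p = 0.12), so the adjusted p was under 0.05 on neither row alone.

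Slc16a1 moved in opposite directions from the control group at the 2 times at both doses, with every library of 12 h below and every library of 24 h above the 3 control libraries. The step from 12 h to 24 h was 1.542 after 5 Gy and 1.235 after 20 Gy on the log2 scale (limma adjusted p = 4.4e-07 and 3e-06). The difference between these steps was -0.31 ± 0.17 (SE, adjusted p = 0.48).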

How the results depend on the processing

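Of 24 changes called in single genes at a fold change of at least 1.5, 16 stayed called in the same direction under every alternative other than a stricter fold change. Over these alternatives 386 of 405 values kept direction and call, 19 were no longer called and none reversed. The stricter fold change is counted separately. Numbers of called genes moved as follows. With a fold change of at least 2, 0 were called 12 h after 5 Gy, 0 12 h after 20 Gy, 3 24 h after 5 Gy, 2 24 h after 20 Gy and 3 between the times after 5 Gy. With only rows that carry the name, 1 was called 12 h after 5 Gy, 3 and 5 between the times after 5 and 20 Gy, and 1 (F11r) between the doses at 12 h. With the highest row of each gene, 1 was called 12 h after 5 Gy and 1 (F11r) between the doses at 12 h. F11r was higher after 20 Gy on the former and lower on the latter. A pseudocount of 0.1 gave 5 between the times after 20 Gy (Kdr and Ocln added), and rescaling to TPM gave 1 (Cldn12) between the doses at 24 h. Leaving out 1 library gave 3 to 4 and 6 to 6 called after 5 Gy at 12 and 24 h, 2 to 2 and 5 to 6 after 20 Gy, 4 to 6 and 2 to 4 between the times after 5 and 20 Gy, and 0 to 0 between the doses at both times. The gain between the times after 20 Gy was Ocln without the third library of 24 h after 20 Gy, and the losses were Tjp1. With the replicate block the numbers of called genes were 3, 6, 2, 5, 5, 3, 0 and 0, the same as without it. Of the 15 libraries 4 correlated best with their own number.

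The number of present genes was 21 at a mean of at least 0.1 FPKM (Fli1, Slco1a4 and Tek added), 15 at a mean of at least 1 FPKM, 20 after rescaling to TPM, 16 with named rows only, 13 when each library had to reach 0.5 FPKM and 18 with overlapping rows. Rows that exchange level between libraries limit Tjp1, Eng, F11r and Flt1, and Cldn12, Abcc4 and Egfl7 rest mostly on rows without a name. The order of the doses in Lrp1 at 24 h differs between its rows. Groups of 3 libraries limit every test, p-values measure only the spread between these libraries, and the shared controls tie the 4 comparisons with control together.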
